A study of Homo sapiens with 20 samples.

Results

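The genes described here encode the machinery that copies nuclear DNA: 47 genes for the origin recognition complex, the licensing factors, the MCM2-7 helicase and the proteins that activate it, the replicative DNA polymerases and primase, the sliding clamp and its loader, the single-strand binding protein RPA, enzymes that join Okazaki fragments, and enzymes of deoxynucleotide supply. They were taken from a list of gene names. Each was read through the probe sets whose only gene symbol in the array annotation was that name, 88 probe sets in all, and the one with the highest mean over the 20 arrays stood for the gene. All 47 genes were found among the 19775 genes with such a probe set, and all 47 passed the intensity filter and were among the 17860 genes tested.

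RNA levels were measured in U937T, a subline of the human monocytic leukemia line U937 with a tetracycline (tet) regulated transactivator, in which a transgene is off as long as tet is present. The clones E10 and E14 (U937T_EVI1-HA) carry an HA-tagged human EVI1 cDNA under this control, and EVI1 is a zinc finger transcription factor whose high expression marks aggressive leukemia. They were harvested 6, 12, 24 and 48 h after washing and transfer to medium without tet or with tet, which gave 16 arrays. The empty vector clone P2 (U937T_vec) and the parental line U937T, here called the control lines, were harvested only at 48 h without tet or with tet, which gave 4 arrays. All lines were grown with puromycin, and E10, E14 and P2 with hygromycin as well. E10, E14 and P2 are each a single clone, and each culture was hybridized once, so that the number of arrays limits the precision. P-values rest on the spread left after groups were fitted and stable differences between lines removed. That spread, pooled over the 16 arrays of the clones and the 4 of the control lines, is not that between repeated cultures of a line.

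DNA is copied once in each cell cycle because licensing and firing of origins are kept apart in time. In G1 phase the origin recognition complex (ORC), CDC6 and CDT1 load the ring-shaped MCM2-7 helicase onto DNA. In S phase the kinase CDC7 with its activator DBF4, together with MCM10, CDC45 and the GINS complex, turns the ring into an active helicase, behind which the polymerases alpha, delta and epsilon synthesize DNA on the sliding clamp PCNA. Many of these genes are transcribed under the control of E2F factors and are more highly expressed in proliferating than in resting cells.

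Because E2F control is a known shared feature of the family, the RefSeq promoter windows of the members, defined as the 250 bases before the start site on GRCh38.p14, were searched on both strands for the E2F words TTTCCCGC, TTTCGCGC, TTTGCCGC and TTTGGCGC, which can overlap one another. A window was found for 41 of the 47 members, and the other 6 were MCM4, MCM5, GINS4, POLD3, RPA2 and RPA3. An E2F word was present in the windows of 15 of the 41 members (36.6%), against 4.81% of 14003 tested genes with a window. The windows of 5 genes are shown here as examples with and without an E2F word. Those of MCM6 (chr2:135876444-135876693, minus strand), MCM3 (chr6:52284743-52284992, minus strand) and GINS2 (chr16:85688955-85689204, minus strand) hold E2F words, given in capitals, and those of ORC1 (chr1:52404424-52404673, minus strand) and POLD2 (chr7:44123549-44123798, minus strand) hold none.
MCM6: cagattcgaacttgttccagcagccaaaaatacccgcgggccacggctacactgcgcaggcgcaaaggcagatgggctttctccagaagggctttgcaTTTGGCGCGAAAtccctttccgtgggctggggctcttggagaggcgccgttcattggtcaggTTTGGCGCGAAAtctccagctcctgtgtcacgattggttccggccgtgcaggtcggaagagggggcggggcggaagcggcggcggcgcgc
MCM3: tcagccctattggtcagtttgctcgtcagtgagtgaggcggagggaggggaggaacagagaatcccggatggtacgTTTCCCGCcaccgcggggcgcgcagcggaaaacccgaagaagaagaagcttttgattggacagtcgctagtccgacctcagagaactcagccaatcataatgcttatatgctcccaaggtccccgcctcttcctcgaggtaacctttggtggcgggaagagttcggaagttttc
GINS2: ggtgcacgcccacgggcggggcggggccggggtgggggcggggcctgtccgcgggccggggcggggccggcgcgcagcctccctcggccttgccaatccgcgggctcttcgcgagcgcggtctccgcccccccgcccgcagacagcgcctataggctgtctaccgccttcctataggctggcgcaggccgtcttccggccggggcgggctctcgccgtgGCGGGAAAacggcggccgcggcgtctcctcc
ORC1: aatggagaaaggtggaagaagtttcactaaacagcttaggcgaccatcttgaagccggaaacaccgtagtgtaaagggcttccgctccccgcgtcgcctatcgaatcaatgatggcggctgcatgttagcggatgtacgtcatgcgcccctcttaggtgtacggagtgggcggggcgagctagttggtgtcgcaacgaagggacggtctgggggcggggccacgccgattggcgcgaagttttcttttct
POLD2: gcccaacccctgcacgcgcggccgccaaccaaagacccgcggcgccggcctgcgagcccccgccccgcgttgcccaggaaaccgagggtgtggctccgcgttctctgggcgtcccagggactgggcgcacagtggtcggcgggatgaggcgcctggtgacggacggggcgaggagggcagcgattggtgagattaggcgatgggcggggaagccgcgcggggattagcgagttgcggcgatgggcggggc
In MCM6 there are 4 such words, in 2 places where a word on each strand overlaps the other. Counted from the start site, the word of GINS2 begins at -31 and that of MCM3 at -174. Of the other members given array by array below, PCNA has an E2F word, and ORC2, ORC5, CDC6, MCM2 and RRM2 have none. MCM4 and GINS4, also given array by array, have no window. Some members have windows at several start sites, and a word in any of them was counted. On the minus strand RefSeq places the upstream end of ORC1 at 52409503 and that of POLD2 at 44124325. The windows of these genes thus lie inside the annotated genes, and the bases before the upstream ends were not searched. A match describes the letters in the window and not a bound site, and no match says only that these letters are not in this window.

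The E-box word CACGTG was present in the windows of 5 members (12.2%), against 10.1% of tested genes, and the cell cycle word TTTGAA in those of 2 members (4.88%), against 13.25% of tested genes. The words GACAAGATA and GAAGATGAG, which EVI1 binds through its first and its second zinc finger domain, were in none of the 41 windows and in 0.06% and 0.29% of those of tested genes. Among the members that were lower at 48 h in the EVI1 clones, by the test given with the results at 48 h, an E2F word was present in 8 of 24 windows, and among the other members in 7 of 17.

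The culture conditions were checked on MECOM, the gene of EVI1, before the replication genes were compared. Its log2 intensity lay between 8.52 and 10.51 in the 8 cultures of E10 and E14 without tet and between 7.06 and 7.34 in those with tet, and the ranges did not overlap. In P2 and U937T at 48 h it was 5.91 and 6.53 without tet, against 6.90 and 6.48 with tet. The fitted response of the EVI1 clones, which is the difference without minus with tet on the log2 scale, was 1.46 at 6 h, 2.65 at 12 h, 2.32 at 24 h and 3.10 at 48 h. Of the myeloid markers, CD4, ITGB2, LYZ, PTPRC, SPI1 and CSF3R had medians between 9.05 and 11.98 over the 20 arrays, whereas MPO (4.97) and FCGR1A (3.52) were low. Markers of lymphoid, erythroid and megakaryocyte, and epithelial and fibroblast cells had medians between 2.95 and 5.69, except CD79A (7.85). At 48 h 4 of 8 tested myeloid markers rose in the clones and 2 of 8 in the control lines, against 16% and 5.41% of all genes. The mean level of the myeloid list was 9.21 in E10 and 9.26 in E14 without tet, against 8.62 and 8.78 with tet. It was also higher without tet in the control lines, at 8.83 in P2 and 8.98 in U937T, against 8.63 and 8.61 with tet. Of 5 tested lymphoid markers CD3E and CD79A rose in the clones at 48 h, against 16% of all genes. The mean of the lymphoid list was 5.79 in E10 and 5.77 in E14 without tet, against 5.57 and 5.49 with tet. In P2 and U937T it was 5.61 and 5.80 without tet, against 5.77 and 5.64 with tet. None of the tested erythroid, megakaryocyte, epithelial or fibroblast markers was called in these comparisons, and the part of these markers in the results on replication genes was not tested. The mean difference between 3′ and 5′ control probe sets, a measure of RNA degradation, ranged from 0.19 to 1.52 and was highest in E14 at 24 h, both without tet (1.40) and with tet (1.52).

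At 48 h replication genes from origin licensing to DNA synthesis were lower in the EVI1 clones without tet. In E10 and E14, 27 of the 47 genes fell after tet withdrawal and 1 rose (limma, Benjamini-Hochberg adjusted p under 0.05 over all genes), which is 57.45% and 2.13% of the members, against 14.7% of all genes tested that were called lower and 16% called higher. The median response of the members was -0.37 on the log2 scale, against -0.04 over all genes, and 39 of 47 responses were negative. In the control lines, which lose tet without gaining EVI1, 3 of the 47 fell and 1 rose, against 5.3% and 5.41% of all genes, and the median response was -0.06. In RNA from whole cultures, fewer cells in S phase and less RNA per cell cannot be told apart.

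**Figure D1:**
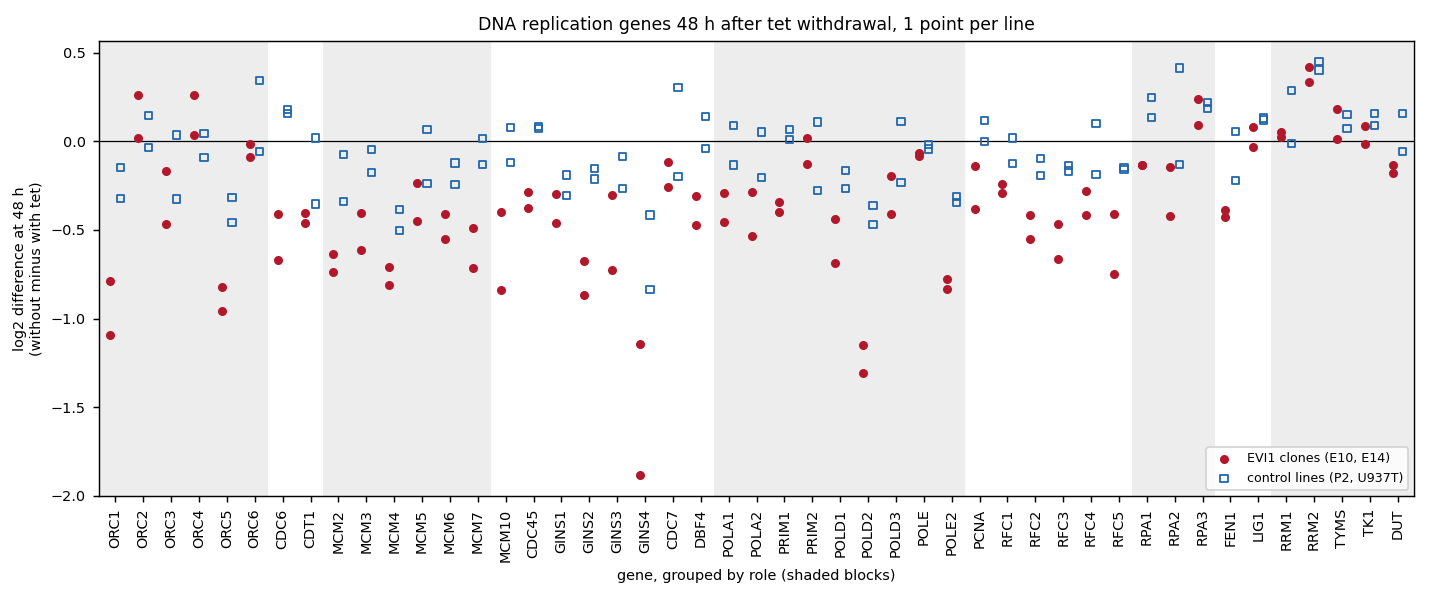
Difference in log2 intensity, without minus with tet, at 48 h (vertical axis) for each of the 47 genes (horizontal axis, shaded by role), with 1 filled circle for each EVI1 clone (E10, E14) and 1 open square for each control line (P2, U937T). In 34 of the 47 genes both circles lie below both squares, and in 0 of 47 both lie above.

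The individual lines were compared without a test, by asking whether the clones and the control lines overlapped. Both clones had a lower difference, without minus with tet, than both control lines in 34 of the 47 members, against 22.9% of all genes. The reverse order, with both clones above both control lines, was found in 0 of 47 members, against 22.8% of all genes. The difference was below 0 in both clones for 38 members, against 40.9% of all genes, and below 0 in both control lines for 17 members, against 32% of all genes. The genes that were lower in both clones than in both control lines did not include ORC2, ORC3, ORC4, ORC6, MCM5, GINS1, CDC7, POLD3, PRIM2, RPA3, RRM1, RRM2 and TYMS. Between the clones, the difference was more negative in E14 than in E10 for 41 members and more negative in E10 for 5, with medians of -0.29 in E10 and -0.45 in E14, against -0.02 in P2 and -0.07 in U937T.

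By role, the helicase and its activators moved together. All 6 subunits of the MCM2-7 ring, the motor of the replication fork, fell in the EVI1 clones at 48 h, by 0.34 to 0.76 on the log2 scale. MCM2 was at 11.25 in E10 and 11.07 in E14 without tet, against 11.89 and 11.81 with tet, and in P2 and U937T at 11.42 and 11.56 without tet, against 11.76 and 11.64 with tet. Both clones without tet were thus below every other culture at 48 h. The response of MCM2 was -0.69 (SE 0.10, adjusted p = 7.53e-05) in the clones and -0.21 (SE 0.10, adjusted p = 0.219) in the control lines. At 6, 12 and 24 h MCM2 had 12.01, 11.77 and 11.70 in E10 and 11.91, 11.88 and 11.56 in E14 without tet, against 12.05, 11.92 and 11.83 in E10 and 12.07, 11.83 and 11.73 in E14 with tet, differences of at most 0.17. At 12 h the cultures without tet and with tet overlapped, and at 6 and 24 h both clones were slightly lower without tet.

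MCM4, another subunit of the ring, was the member of this group that changed most in the clones, and on the chosen probe set it also fell in the control lines. Its level at 48 h was 10.66 in E10 and 10.44 in E14 without tet, against 11.37 and 11.25 with tet. In P2 and U937T it was 10.61 and 10.61 without tet, against 11.11 and 10.99 with tet. The cultures without tet lay below those with tet in all 4 lines, with no overlap. The response was -0.76 in the clones (SE 0.12, adjusted p = 0.000177) and -0.44 in the control lines (SE 0.12, adjusted p = 0.0284), and their difference was -0.32 (95% confidence interval -0.68 to 0.04, adjusted p = 0.361). With the probe set of the largest spread the response of the control lines was 0.026 and not called. That call was also lost with the mean of all probe sets, without the block for the line and with the arrays at 48 h alone. Earlier, at 6, 12 and 24 h, MCM4 had 11.30, 11.29 and 11.07 in E10 and 10.96, 10.69 and 10.51 in E14 without tet, against 11.28, 11.28 and 10.95 in E10 and 11.06, 11.03 and 10.76 in E14 with tet. Through 24 h, then, MCM4 in E10 was marginally higher without tet and in E14 lower without tet.

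Of the 8 genes for helicase activation, 7 fell in the clones at 48 h, namely MCM10, CDC45, all 4 GINS subunits and DBF4, and CDC7 did not pass the test (-0.19). GINS2, a subunit of the GINS complex that joins CDC45 and MCM2-7 into the active helicase, was at 10.41 in E10 and 10.19 in E14 without tet, against 11.08 and 11.06 with tet. In P2 and U937T it was at 10.77 and 10.80 without tet, against 10.98 and 10.95 with tet. The clones without tet were the lowest cultures and did not overlap with the others. GINS2 responded by -0.77 in the clones (SE 0.11, adjusted p = 0.00011) and by -0.18 in the control lines (SE 0.11, adjusted p = 0.385). Its values at 6, 12 and 24 h were 11.39, 11.12 and 11.06 in E10 and 11.11, 11.28 and 10.74 in E14 without tet, against 11.41, 11.13 and 11.15 in E10 and 11.30, 11.13 and 10.91 in E14 with tet. Before 48 h the differences of GINS2 were small and of both signs.

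GINS4 had the most negative response of all members at 48 h (-1.52, SE 0.46, adjusted p = 0.0203), but its probe set 211767_at was erratic. Its values at 48 h were 8.94 in E10 and 7.88 in E14 without tet, against 10.09 and 9.76 with tet, and 8.17 in P2 and 7.76 in U937T without tet, against 8.58 and 8.60 with tet. The values over 6, 12 and 24 h were 9.58, 10.16 and 9.78 in E10 and 9.03, 7.54 and 8.22 in E14 without tet, against 8.65, 8.38 and 7.98 in E10 and 8.46, 7.93 and 8.02 in E14 with tet. The difference was positive in both clones at 24 h and negative in both at 48 h, but in E14 it was also negative at 12 h (-0.39). E10 and E14 without tet were far apart at 12 and 24 h. The other 3 probe sets of GINS4 gave clone means between -0.27 and -0.23 at 48 h, and with the mean of all probe sets the gene was no longer called.

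Loading of the helicase depends on ORC, CDC6 and CDT1, and here the members were split. ORC1, which is the subunit with cell cycle regulated abundance in human cells, and ORC5 fell in the clones at 48 h, whereas ORC2, ORC3, ORC4 and ORC6 did not pass the test, with responses between -0.32 and 0.15. ORC1 was at 8.73 in E10 and 8.43 in E14 without tet, against 9.52 in both with tet, and at 9.16 in P2 and 8.96 in U937T without tet, against 9.31 and 9.28 with tet. At 6, 12 and 24 h it was at 9.97, 9.51 and 9.40 in E10 and 9.68, 9.70 and 9.17 in E14 without tet, against 10.10, 9.61 and 9.52 in E10 and 10.09, 9.52 and 9.21 in E14 with tet. The clones without tet at 48 h were the lowest of the 20 cultures. The response of ORC1 was -0.94 in the clones (1.92-fold lower, SE 0.12, adjusted p = 3.54e-05) and -0.23 in the control lines (SE 0.12, adjusted p = 0.278).

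ORC5 had 9.23 in E10 and 9.06 in E14 at 48 h without tet, against 10.05 and 10.02 with tet, and 9.46 in P2 and 9.43 in U937T without tet, against 9.78 and 9.89 with tet. The earlier values, at 6, 12 and 24 h, were 10.08, 9.93 and 9.64 in E10 and 10.11, 10.09 and 9.68 in E14 without tet, against 10.15, 10.14 and 10.15 in E10 and 10.20, 10.16 and 10.13 in E14 with tet. In both clones ORC5 was lower without tet at all 4 times, with differences between -0.21 and -0.07 at 6 and 12 h and between -0.96 and -0.45 from 24 h on, and it was lower in both control lines as well. Its response was -0.48 at 24 h (SE 0.09, adjusted p = 0.0023) and -0.89 at 48 h (1.85-fold lower, SE 0.09, adjusted p = 4.27e-06) in the clones, and -0.39 in the control lines (SE 0.09, adjusted p = 0.0156).

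ORC2, a core subunit of the same complex, showed no such pattern. At 48 h it had 9.23 in E10 and 9.09 in E14 without tet, against 8.97 and 9.08 with tet, and 8.99 in P2 and 8.93 in U937T without tet, against 8.84 and 8.97 with tet. Over 6, 12 and 24 h it was at 8.93, 8.83 and 9.13 in E10 and 8.76, 8.98 and 9.06 in E14 without tet, against 8.86, 8.91 and 9.13 in E10 and 8.83, 9.06 and 9.27 in E14 with tet. At 48 h ORC2 was marginally higher without tet in both clones, whereas the conditions overlapped before, and the response at 48 h was 0.14 in the clones (95% confidence interval -0.09 to 0.37, adjusted p = 0.384) and 0.06 in the control lines (adjusted p = 0.823).

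Both licensing factors that load the ring fell in the clones, CDT1 by 0.43 and CDC6 by 0.54 on the log2 scale. CDC6 was at 8.10 in E10 and 7.88 in E14 without tet at 48 h, against 8.51 and 8.55 with tet. In P2 and U937T it was at 8.42 and 8.37 without tet, against 8.24 and 8.21 with tet. The clones and the control lines thus differed in sign, and the response was -0.54 in the clones (SE 0.16, adjusted p = 0.0167) and 0.17 in the control lines (SE 0.16, adjusted p = 0.591). Over 6, 12 and 24 h CDC6 had 9.17, 8.62 and 8.93 in E10 and 8.61, 8.75 and 8.30 in E14 without tet, against 9.28, 8.69 and 8.70 in E10 and 8.96, 8.56 and 8.56 in E14 with tet. E10 and E14 did not keep a common sign at 12 and 24 h. With the probe set of the largest spread, 203967_at, CDC6 was at -0.42 in the clones at 48 h and not called (limma, adjusted p = 0.128). Its difference at 48 h on that probe set was -0.01 in P2 and 0.19 in U937T.

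**Figure D2:**
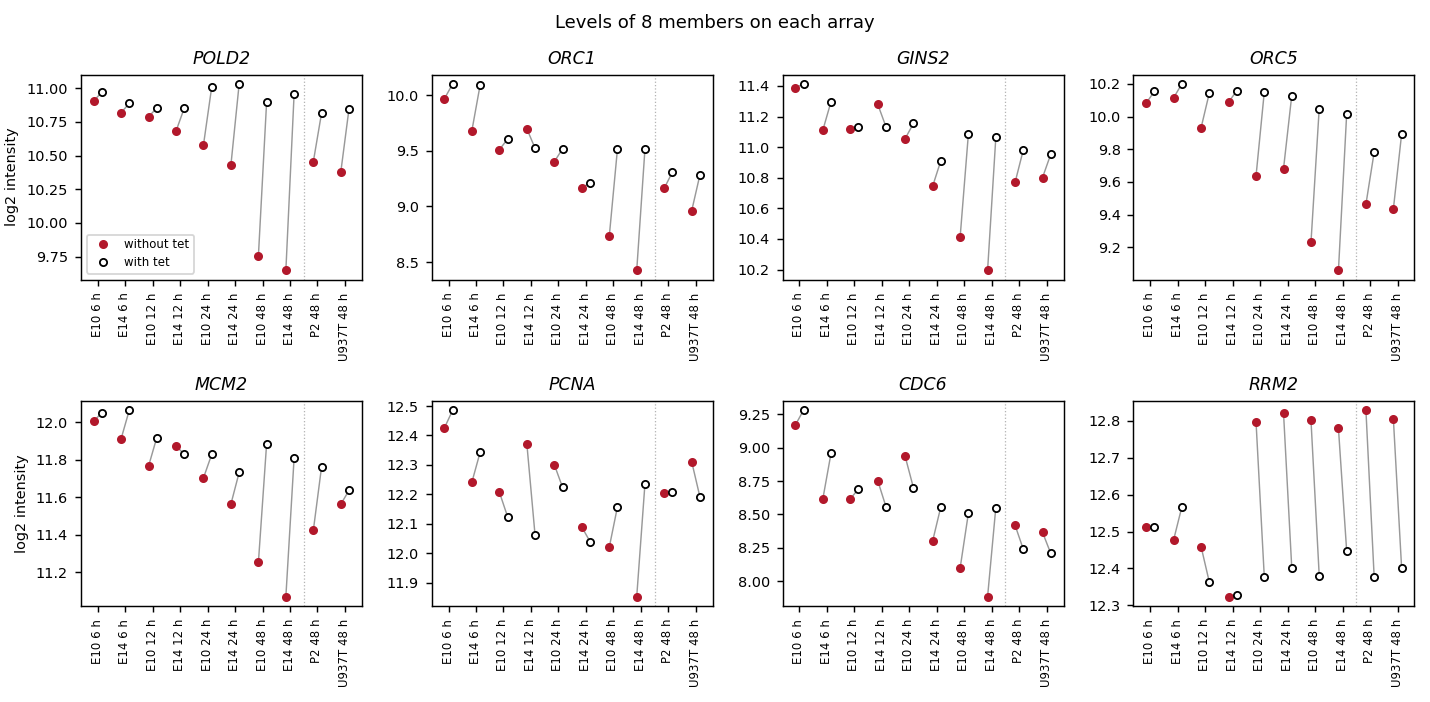
Log2 intensity (vertical axis, scaled for each gene) on the 20 arrays for 8 of the genes, with filled circles without tet, open circles with tet, a line joining the cultures of the same line and time, and the control lines P2 and U937T right of the dotted line. POLD2, ORC1, GINS2, ORC5 and MCM2 have their lowest values in E10 and E14 at 48 h without tet, and RRM2 is higher without tet in all 4 lines at 48 h.

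Among the 9 polymerase and primase genes, 5 fell in the clones at 48 h: POLA1 and POLA2 of polymerase alpha, POLD1 and POLD2 of polymerase delta, and POLE2 of polymerase epsilon. PRIM1 (-0.37), PRIM2 (-0.05), POLD3 (-0.30) and POLE (-0.07) did not pass the test. POLD2, the accessory subunit that binds the catalytic subunit of polymerase delta, had 9.75 in E10 and 9.65 in E14 without tet at 48 h, against 10.90 and 10.96 with tet, and 10.46 in P2 and 10.38 in U937T without tet, against 10.82 and 10.85 with tet. Over 6, 12 and 24 h POLD2 had 10.90, 10.79 and 10.58 in E10 and 10.82, 10.68 and 10.43 in E14 without tet, against 10.97, 10.85 and 11.01 in E10 and 10.89, 10.85 and 11.03 in E14 with tet. In every pair of cultures POLD2 was lower without tet, and from 12 h on the gap widened in both clones, to 1.15 in E10 and 1.31 in E14 at 48 h. Its response in the clones was -0.07 at 6 h, -0.12 at 12 h, -0.52 at 24 h (SE 0.09, adjusted p = 0.00088) and -1.23 at 48 h (2.34-fold lower, SE 0.09, adjusted p = 1.29e-07), and in the control lines it was -0.42 (1.33-fold lower, SE 0.09, adjusted p = 0.00764).

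Of the clamp and its loader, RFC2, RFC3, RFC4 and RFC5, small subunits of the complex that opens the PCNA ring, fell by 0.35 to 0.58 on the log2 scale, and RFC1 (-0.26) and PCNA did not pass the test. PCNA itself was at 12.02 in E10 and 11.85 in E14 without tet at 48 h, against 12.16 and 12.24 with tet, and at 12.21 in P2 and 12.31 in U937T without tet, against 12.21 and 12.19 with tet. Its levels at 6, 12 and 24 h were 12.43, 12.21 and 12.30 in E10 and 12.24, 12.37 and 12.09 in E14 without tet, against 12.49, 12.12 and 12.22 in E10 and 12.34, 12.06 and 12.04 in E14 with tet. The clones without tet were the lowest at 48 h, with gaps of 0.14 in E10 and 0.38 in E14, whereas at 12 h PCNA was higher without tet in both clones, by 0.08 and 0.31. The response of PCNA at 48 h was -0.26 in the clones (SE 0.11, adjusted p = 0.0816) and 0.06 in the control lines (SE 0.11, adjusted p = 0.813).

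The genes of RPA, which coats unwound single strands, did not pass the test in the clones at 48 h, with responses of -0.13 for RPA1, -0.28 for RPA2 and 0.17 for RPA3. FEN1, the nuclease that trims Okazaki fragments, fell by 0.41 on the log2 scale, and LIG1, the ligase that seals them, was at 0.02. Of the 5 deoxynucleotide genes none fell, TYMS, TK1, RRM1 and DUT had responses between -0.16 and 0.10, and RRM2, the small subunit of ribonucleotide reductase, rose. RRM2 had 12.80 in E10 and 12.78 in E14 without tet at 48 h, against 12.38 and 12.45 with tet, and 12.83 in P2 and 12.80 in U937T without tet, against 12.38 and 12.40 with tet. At 6, 12 and 24 h it had 12.51, 12.46 and 12.80 in E10 and 12.48, 12.32 and 12.82 in E14 without tet, against 12.51, 12.36 and 12.38 in E10 and 12.57, 12.33 and 12.40 in E14 with tet. From 24 h on, all cultures without tet were above all cultures with tet, in the control lines as well as in the clones. The response of RRM2 was 0.38 in the clones (SE 0.08, adjusted p = 0.00333) and 0.43 in the control lines (SE 0.08, adjusted p = 0.00548) at 48 h, and the difference between them was -0.05 (95% confidence interval -0.31 to 0.21, adjusted p = 0.889). The call of RRM2 in the clones was lost with the probe set of the largest spread (0.20, adjusted p = 0.354), with which DUT was called lower (-0.51, adjusted p = 0.00179), and without E10 or without E14. In the limma fit with the probe set of the largest spread, the calls of FEN1 (-0.42, adjusted p = 0.0539) and RFC4 (-0.35, adjusted p = 0.0531) were lost too.

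Fewer genes were called lower at 48 h without E10 or without E14. In these fits each group of the clones held 1 array, and the 1 residual degree of freedom came from the control lines. They cannot show whether a call stands against the spread between the clones. The call of GINS4 was lost with the mean of all probe sets, with intensity trend and robust estimation, and without the block for the line. In P2 and U937T no member was called in either direction once any of the 4 lines was left out, nor in a fit of the arrays at 48 h alone.

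The time course placed the change late. At 6 h and at 12 h none of the 47 members was called in either direction, by limma at adjusted p under 0.05. All genes gave 0% lower and 0% higher at 6 h, and 0.0112% lower and 0.0168% higher at 12 h, and at unadjusted p under 0.05 there were 2 members lower and 0 higher at 6 h and 0 in either direction at 12 h. At 24 h only POLD2 and ORC5 were lower and RRM2 higher, which is 4.26% and 2.13% of the members, against 9.16% of all genes lower and 7.97% higher, and at unadjusted p under 0.05 there were 3 members lower and 6 higher. The median response of the members was -0.05 at 6 h, 0.04 at 12 h, 0.0032 at 24 h and -0.37 at 48 h. The calls of POLD2, ORC5 and RRM2 at 24 h were all lost without the E14 arrays at 12 and 24 h, among which were the highest 3′ to 5′ differences, and without E10 or E14.

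The change of the clone response between 24 and 48 h was tested directly. It was negative in 45 of the 47 members, with a median of -0.39, against -0.02 over all genes. ORC1 (-0.86), MCM2 (-0.54), MCM4 (-0.69), CDC45 (-0.65), GINS2 (-0.64), GINS4 (-2.52), POLD2 (-0.71) and POLE2 (-0.71) were called lower and 0 members higher, also at unadjusted p under 0.05. This is 17.02% of the members, against 1.63% of all genes lower and 2.07% higher. At 48 h CDC45, which travels with the helicase, had a response of -0.33, against 0.31 (adjusted p = 0.0556) at 24 h. The number of calls was 1 without the E14 arrays at 12 and 24 h, 1 without E14 and 0 without E10.

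**Figure D3:**
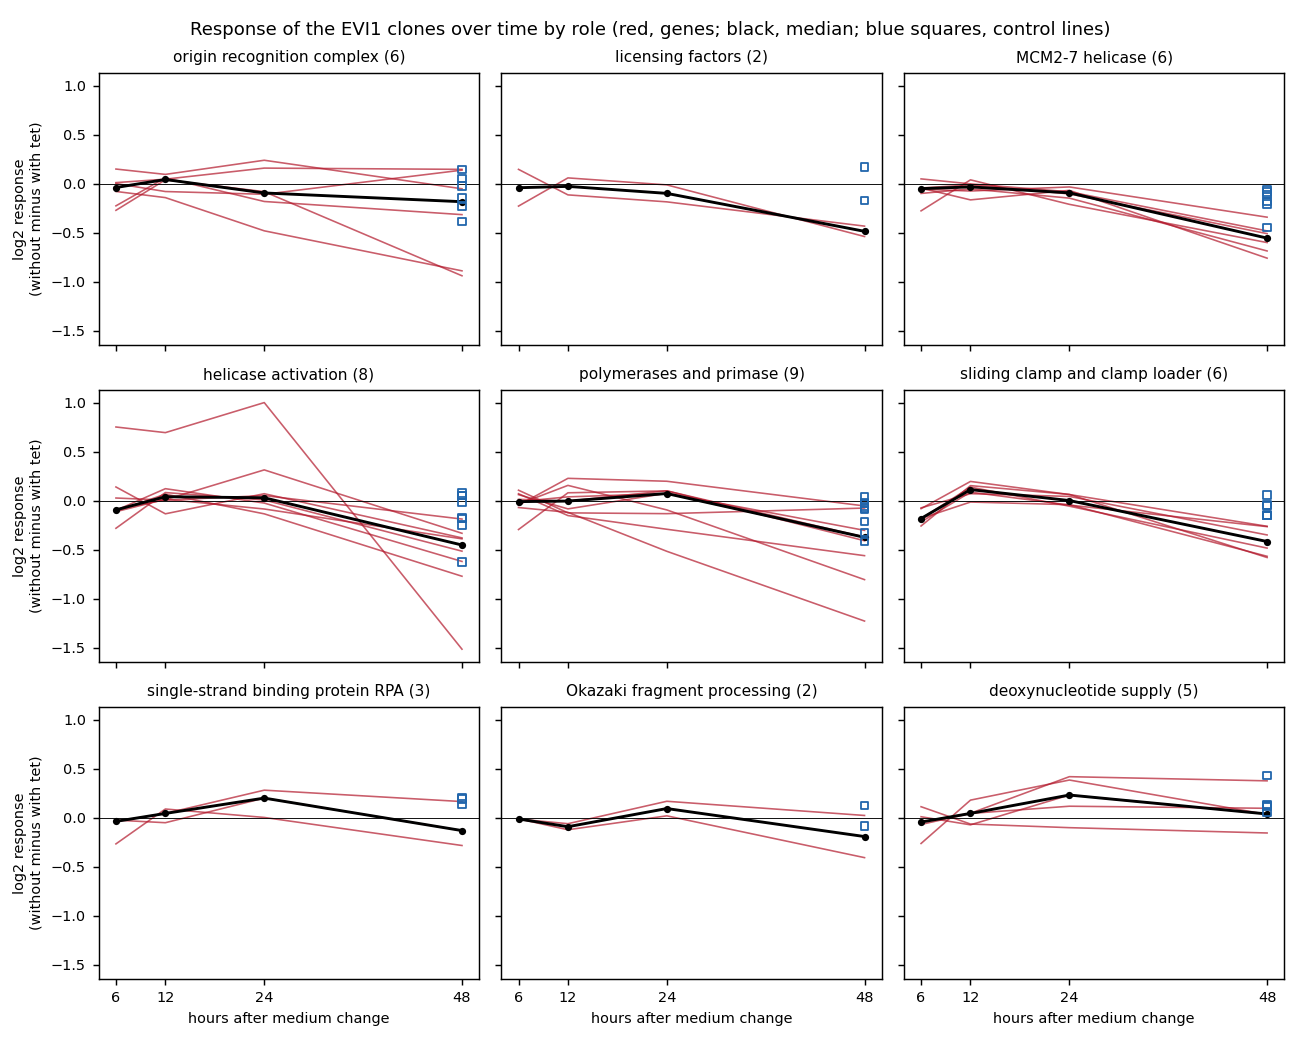
Fitted log2 response of the EVI1 clones, without minus with tet (vertical axis), at 6, 12, 24 and 48 h (horizontal axis) for the members of each role, with red lines for genes, black lines for the group median and blue squares for that of P2 and U937T at 48 h. The medians of all roles but the deoxynucleotide genes are lowest at 48 h, that of MCM2-7 at -0.56, and GINS4 is the line that crosses from 1.00 at 24 h to -1.52 at 48 h.

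Cultures kept with tet also changed with time. In these, ORC1 (-0.58), CDC6 (-0.59), MCM7 (-0.64), GINS3 (-0.47), PRIM1 (-0.53) and RPA2 (-0.64) were lower at 48 h than at 6 h in E10 and E14, and 0 members were called higher (4 at unadjusted p under 0.05). The lower calls are 12.77% of the members, against 4.07% of all genes lower and 3.1% higher. A fit that took the 3′ to 5′ difference into account left 1 call, and without E10 or without E14 the number called lower was 0. That difference was 0.66 in E10 and 0.74 in E14 at 48 h, against 0.19 and 0.45 at 6 h, and the share of the change that goes with it was not tested.

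To separate induction of EVI1 from withdrawal of tet, the 48 h response of P2 and U937T was subtracted from that of the clones. This EVI1-specific response was negative in 44 of the 47 members, with a median of -0.32, against -0.0036 over all genes. POLD2, ORC1, GINS2 and ORC5 passed the test as lower and 0 members as higher, 8.51% of the members, against 3.03% of all genes lower and 2.43% higher. At unadjusted p under 0.05 there were 17 members lower and 0 higher. The comparison uses the same clone arrays as the response of the clones, so that the values of both are not independent.

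POLD2 had an EVI1-specific response of -0.81 (95% confidence interval -1.08 to -0.55, adjusted p = 0.00151), ORC1 of -0.70 (-1.08 to -0.33, adjusted p = 0.029) and ORC5 of -0.50 (-0.78 to -0.22, adjusted p = 0.0403). GINS2 had -0.59 (-0.93 to -0.24) with an adjusted p of 0.05 after rounding, at the edge of the threshold. CDC6 (-0.71, adjusted p = 0.0872) and MCM2 (-0.48, adjusted p = 0.0614) did not pass. The wide interval of GINS4 (-2.28 to 0.50) included 0. The positive values were those of ORC4 (0.17), ORC2 (0.08) and PRIM2 (0.03). All 6 MCM2-7 genes had negative values, between -0.54 and -0.26, and none passed.

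These calls rested on few arrays. ORC1, ORC5 and GINS2 were called in none of the fits that left out 1 of the 4 lines, whereas POLD2 was still called without P2 and without U937T but not without E10 or without E14, and in a fit of the arrays at 48 h alone no member was called.

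Many members have further probe sets, which gave a second reading on the same arrays. Of the 47 members, 21 had a single probe set with 1 gene symbol and 26 had more, with 41 other probe sets in all. Of these, 27 belong to 16 of the genes called lower in the clones at 48 h, and their median difference at 48 h was -0.45. In 23 of the 27 the difference was below 0 in both clones, and in 22 both clones were below both control lines. The exception in the opposite direction, named after its values were seen, was probe set 213734_at of RFC5, with differences of 1.05 in E10 and 0.81 in E14, against 0.50 in P2 and 0.33 in U937T. RefSeq places RFC5 and WSB2 in overlapping intervals of chromosome 12, and WSB2 rose by 1.30 in the clones and by 0.64 in the control lines (adjusted p = 1.06e-06 and 0.00316). Whether probe set 213734_at reads RNA of WSB2 was not tested.

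Some of the lower-intensity probe sets also moved in E14 at 12 h. Probe sets 201476_s_at of RRM1, 204128_s_at of RFC3 and 211212_s_at of ORC5 differed by 1.19, 1.05 and 1.00 there, and the 3′ to 5′ difference of these E14 cultures was 0.46 without tet, against 1.02 with tet. The chosen probe sets of RRM1, RFC3 and ORC5 differed by -0.25, 0.13 and -0.07 on the same arrays. At 48 h the 3′ to 5′ difference was 0.68 in E10 and 0.84 in E14 without tet, against 0.66 and 0.74 with tet, and with it as a covariate 30 members were called lower in the clones.

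**Figure D4:**
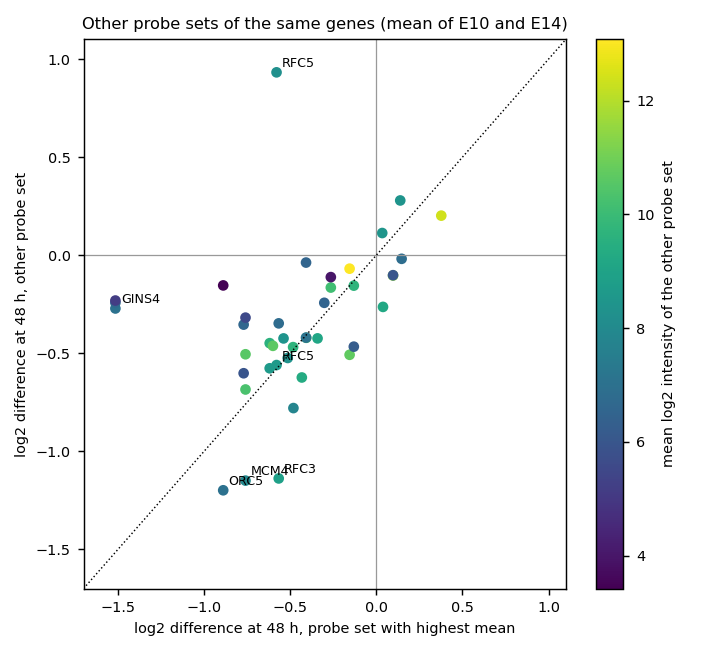
Mean difference of E10 and E14 at 48 h, without minus with tet, in log2 intensity, for each of the 41 other probe sets (vertical axis) against that of the probe set chosen for the same gene (horizontal axis), coloured by the mean log2 intensity of the other probe set, with a dotted line where both are equal. Most points lie below 0 on both axes, 1 probe set of RFC5 lies at 0.93, and the 3 other probe sets of GINS4 lie between -0.27 and -0.23 where the chosen one is at -1.52.

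The wider set of replication genes, with 40 measured genes of lagging strand, chromatin assembly, checkpoint and nucleotide functions, had calls in both directions. In the clones at 48 h 9 of the 40 fell (22.5%) and 5 rose (12.5%), against 14.7% and 16% of all genes, with a median response of -0.16. In the control lines 1 fell (2.5%) and 2 rose (5%), against 5.3% and 5.41% of all genes, so that the shares other than that of the genes lower in the clones were below or close to those over all genes. Their EVI1-specific response had a median of -0.23 and was lower for 1 gene, TIPIN, a partner of TIMELESS in fork protection (-0.73, adjusted p = 0.00958). The next most negative values were those of POLE3 (-0.57), a histone-fold subunit of polymerase epsilon, and CLSPN (-0.55), the checkpoint mediator claspin. The most positive were those of SAMHD1 (0.54), which degrades deoxynucleotides, POLD4 (0.51), the smallest subunit of polymerase delta, and RRM2B (0.30), the p53-inducible small subunit of ribonucleotide reductase. None of these 5 passed the test.

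The E2F factors, pocket proteins and S-phase cyclins, 15 measured genes, also had calls in both directions. In the clones at 48 h 4 fell (26.67%) and 5 rose (33.33%), against 14.7% and 16% of all genes, and in the control lines 1 fell (6.67%) and 4 rose (26.67%), against 5.3% and 5.41% of all genes. None of the 15 passed the test of the EVI1-specific response, in which the median was -0.18. The most negative EVI1-specific values were those of E2F5 (-0.82, adjusted p = 0.0877), CDC25A (-0.59), a phosphatase that activates cyclin-dependent kinases, and RBL1 (-0.56), a pocket protein. The only positive values were those of the pocket protein genes RBL2 (0.34) and RB1 (0.11). E2F5 fell by 1.89 on the log2 scale in the clones and by 1.07 in the control lines.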

How the data were processed

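Total RNA was labelled and hybridized to Affymetrix HG-U133 Plus 2.0 arrays, and the deposited values are log2 intensities from the authors' Robust Multi-array Analysis (background correction, quantile normalization, median polish), which ties the arrays to a common distribution, so that a shift of all genes cannot be seen. The values were used without further normalization, and the array medians lay between 5.25 and 5.35. Of 54675 probe sets, 41097 carried 1 gene symbol in GEO's platform annotation, and those with several (1801) or none (11777) were left out. As in the study's methods, a probe set needed a log2 intensity averaging 3 or more in each clone at 24 h and at 48 h and in each control line at 48 h, here over the cultures without and with tet. Of several probe sets of a gene the brightest on average was used.

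All 20 arrays in 10 groups were fitted in limma 3.58.1 (R 4.3.3) with the line as a block, 8 residual and 5.74 prior degrees of freedom, and Benjamini-Hochberg adjustment over 17860 genes. The fit was run on simulated data with independent noise on each array around the line means. The check covered only the average size of planted changes in the clones at 48 h. It does not measure how reliable the calls in these data are. Cultures of the same line pair the samples. The difference E10 minus E14 correlated across genes at a median of 0.11 over 28 pairs of groups (from -0.22 to 0.52), and P2 minus U937T had -0.21 between conditions. Groups came from the sample labels. The members and lists were chosen with earlier results of these data known. Values on every array are given for members called in the EVI1-specific response, the 3 with the largest change in the control lines, and PCNA, MCM2, CDC6, RRM2 and ORC2. From the wider lists come the 3 most negative and the 3 most positive EVI1-specific values. Alternatives changed the filter, the probe set, centring, the variance model, the block, the arrays fitted and the lines. Promoter windows and gene positions are those of RefSeq (GRCh38.p14), read with Python 3.11.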

Additional observations from a re-analysis of the deposited data

Results flagged for a closer look

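Differences between groups passed a test of the difference itself (limma, adjusted p under 0.05) for members in 2 comparisons. Between the EVI1 clones and the control lines, the responses at 48 h differed by -0.81 for POLD2, -0.70 for ORC1, -0.59 for GINS2 and -0.50 for ORC5. Between 48 and 24 h, the responses of the EVI1 clones differed by -2.52 for GINS4, -0.86 for ORC1, -0.71 for POLD2, -0.71 for POLE2, -0.69 for MCM4, -0.65 for CDC45, -0.64 for GINS2 and -0.54 for MCM2. Both comparisons use the clone arrays at 48 h. No group held enough arrays for a search for single outlying samples.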

How the results depend on the processing

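The number of members called lower in the clones at 48 h (27) stayed between 24 and 30 in the fits with other filters, probe sets, centring, variance models, blocks or arrays, and was 16 with a change of at least 0.5 and 5 to 27 when 1 line was left out. The 1 member called higher there became 0 with at least 0.5, and 0 to 1 with a line left out, and with the probe set of the largest spread it was RFC5 in place of RRM2. At 24 h the 2 called lower became 1 with the probe set of the largest spread, 1 with the mean of all probe sets, 1 with at least 0.5, 0 when E14 lacked its 12 and 24 h arrays and 0 to 2 with a line left out. The 1 called higher at 24 h became 2 with a mean intensity of at least 5, 2 with the mean of all probe sets, 2 with intensity trend and robust estimation, 3 with the 3′ to 5′ covariate, 0 with at least 0.5 and 0 to 1 with a line left out, and it was GINS4 in place of RRM2 when E14 or its 12 and 24 h arrays were left out and RFC5 with the largest spread. At 12 h 0 to 1 were called higher with a line left out. In the control lines the 3 called lower became 1 with the largest spread, 1 with the mean of all probe sets, 0 with the arrays at 48 h alone, 0 with at least 0.5 and 0 with any line left out, and the 1 called higher became 0 with the largest spread, 0 with the arrays at 48 h alone, 0 with at least 0.5 and 0 with any line left out. The EVI1-specific response (4 lower) had 2 with arrays centred on their medians, 1 with the largest spread, 1 when E14 lacked its 12 and 24 h arrays, 0 with the arrays at 48 h alone and 0 to 1 with a line left out. The change between 24 and 48 h (8 lower) had 4 with centred arrays, 2 with the largest spread, 3 with no replicate block, 1 when E14 lacked its 12 and 24 h arrays and 0 to 7 with a line left out. With tet over culture time (6 lower, 0 higher), 2 were lower with no replicate block, 1 with the 3′ to 5′ covariate and 0 to 5 with a line left out, and the number higher was 2 with a mean of at least 5, 2 with trend and robust estimation, 1 with the largest spread, 1 with the mean of all probe sets, 1 when E14 lacked its 12 and 24 h arrays and 0 to 1 with a line left out. Without E10 or E14 only 1 residual degree of freedom is left, and it comes from the control lines. These counts therefore cannot show whether calls stand against the spread between the clones. For the other counts the cause was not tested.

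Of the responses called in the main fit or in the alternative, the sign changed only with another choice of probe set. RFC5 in the clones at 48 h was 0.93 and MCM4 in the control lines 0.026 with the probe set of the largest spread. FEN1 over culture time with tet was -0.59 with that choice and -0.28 with the mean of all probe sets. Sign changes of responses called in neither fit were not counted. Without the replicate block 26 members were called lower in the clones at 48 h and 3 in the EVI1-specific response. A crossed pairing of the control lines, chosen after seeing the data, gave 3 lower and 1 higher in the control lines and 5 lower in the EVI1-specific response.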
